A study of Mus musculus with 6 samples.

Results

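The AP-1 transcription factors of the JUN and FOS families were examined in chondrocytes that had lost Jab1. The genes were chosen by name: Jun, Junb and Jund of the JUN family, Fos, Fosb, Fosl1 and Fosl2 of the FOS family, and Batf, which makes 8 genes of the 27734 in the table. Chondrocytes, the cells that make cartilage, were isolated from E18.5 mouse ribs. The mutant embryos were Jab1 conditional knockouts (cKO), with both copies of Jab1 floxed and Cre recombinase driven by the Col2a1 promoter, so that deletion was directed to cells that use this cartilage promoter; the others were labelled wild type. Each genotype had 3 libraries. Nothing in the labels ties a library to its own embryo or litter, so the p-values rest on a library-to-library spread that could be technical. Cells of both groups had been through pronase and an overnight collagenase digestion, and were collected without culture. Libraries are named by the number in their column, 0, 1 or 2. Expression is given in FPKM, a fragment count corrected for gene length and for library size, which allows levels of different genes to be compared per length.

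AP-1 is a dimer of basic leucine zipper (bZIP) proteins. JUN proteins pair with each other or with FOS proteins, while FOS proteins need a JUN partner to bind DNA. Fos, Fosb, Jun and Junb are classical immediate-early genes, switched on within minutes by growth factors, stress or the handling of tissue through MAP kinases and serum response factor, whereas Jund is expressed more steadily and Fosl1 follows later, in part as a target of AP-1 itself. Jab1 was first described as a coactivator that binds JUN, and is also the catalytic subunit of the COP9 signalosome. In cartilage AP-1 is known for its part in hypertrophic maturation and in the induction of matrix metalloproteinases.

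The promoters of Fos, Fosb, Jun and Junb are shown because these genes stood out together in cKO column 0, described further on. The sequences are from RefSeq (GRCm38.p6, the assembly of mm10), which held 7 of the 8 genes, and run from 250 bases before the transcription start to 50 after it, 5′ to 3′ on the strand of the gene. They lie at chr12:85473640-85473939 on the plus strand for Fos, and on the minus strand at chr7:19309996-19310295 for Fosb, chr4:95052173-95052472 for Jun and chr8:84978699-84978998 for Junb. Capitals mark matches, on either strand, to the GC box GGGCGG (read as CCGCCC on the other strand), to CCAAT and to TGACNTCA.
Fos: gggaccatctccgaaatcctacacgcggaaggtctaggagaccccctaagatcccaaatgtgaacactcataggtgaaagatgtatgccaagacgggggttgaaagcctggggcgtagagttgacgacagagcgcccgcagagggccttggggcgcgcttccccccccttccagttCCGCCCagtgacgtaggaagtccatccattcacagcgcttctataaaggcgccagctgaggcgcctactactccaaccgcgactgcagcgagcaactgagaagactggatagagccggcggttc
Fosb: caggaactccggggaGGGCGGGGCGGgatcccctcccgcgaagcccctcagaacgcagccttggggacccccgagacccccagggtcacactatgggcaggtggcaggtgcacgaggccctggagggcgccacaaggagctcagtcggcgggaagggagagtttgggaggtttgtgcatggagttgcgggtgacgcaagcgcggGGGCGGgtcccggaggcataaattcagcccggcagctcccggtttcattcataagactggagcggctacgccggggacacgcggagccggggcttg
Jun: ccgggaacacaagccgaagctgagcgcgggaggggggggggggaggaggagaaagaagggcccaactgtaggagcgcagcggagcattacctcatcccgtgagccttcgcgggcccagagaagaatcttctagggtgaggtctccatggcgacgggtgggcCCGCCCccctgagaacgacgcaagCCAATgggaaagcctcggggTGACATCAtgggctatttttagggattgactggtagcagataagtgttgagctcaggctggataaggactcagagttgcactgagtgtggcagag
Junb: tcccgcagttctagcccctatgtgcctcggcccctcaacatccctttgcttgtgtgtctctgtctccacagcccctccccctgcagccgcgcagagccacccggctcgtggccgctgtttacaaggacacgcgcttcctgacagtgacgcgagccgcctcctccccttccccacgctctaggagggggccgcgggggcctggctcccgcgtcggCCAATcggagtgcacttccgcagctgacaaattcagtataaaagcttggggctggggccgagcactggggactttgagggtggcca

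The windows of Jund and Fosl2 do not hold the GENCODE gene starts given with those genes, the Jund window ending before its start and the Fosl2 window beginning after it. Jun alone of the 7 windows held TGACNTCA, an 8-base site of the kind bound by JUN with ATF partners, from 45 to 38 bases before the start. Of 32851 promoters of the same length, 8.83% held it. The 7-base AP-1 site TGANTCA, found in 7.81% of promoters, the cyclic AMP response element TGACGTCA, found in 1.79%, and the CArG box bound by serum response factor, found in 1.63%, had no match in the 7 windows. TGACGTCA is itself a TGACNTCA sequence, so these overlap. The lack of a match holds only for the windows, which reach 250 bases before the start. Sites further upstream were not searched. GC boxes, present in 35.7% of promoters, were in the windows of Fos, Fosb, Jun, Fosl2 and Batf, with 3 in Fosb, the first pair of which share 1 end base. CCAAT, present in 37.4%, was in those of Jun and Junb.

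The targeted gene was low in every knockout library. Cops5, which encodes Jab1, measured 17.0, 18 and 17.2 FPKM in cKO columns 0, 1 and 2, against 42.3, 39.8 and 40.1 FPKM in wild type (log2 fold change -1.18, SE 0.0599, limma adjusted p = 6.5e-04). Over all genes tested, 6.07% changed. One library stood apart from the rest. In cKO column 0, 146 of 14012 genes tested (1.04%) were over 2 times their value in each of the other 5 libraries, on FPKM + 1, against 65 to 80 genes (0.464 to 0.571%) for any other library. Of the 11055 protein-coding genes tested, 38 were among these 146. Xist measured 37.3, 0.0176 and 0.0244 FPKM in cKO columns 0, 1 and 2 and 63.1 to 65.9 FPKM in wild type, and the Y-linked gene Ddx3y 7.78, 46.1 and 36.0 FPKM in cKO and 0.0281 to 0.450 FPKM in wild type. Every cKO library held Y-linked RNA and cKO column 0 held Xist RNA as well, so sex and genotype cannot be told apart in the differences between groups, and the part of embryo sex or pooling in cKO column 0 was not tested. Column totals were 571180 to 631534 FPKM.

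Jund (chr8:70698949-70700616) had the highest level of the 8 genes in wild-type chondrocytes. It measured 72.4, 31.6 and 39.6 FPKM in cKO columns 0, 1 and 2, against 49.9, 40.9 and 38.5 FPKM in wild-type columns 0, 1 and 2. The groups overlapped, with cKO column 0 above and cKO column 1 below every wild-type library. Its mean was 47.9 ± 21.6 FPKM in cKO and 43.1 ± 6.0 FPKM in wild type (SD, n = 3 each), and it did not pass the test (log2 fold change 0.07, SE 0.308, limma adjusted p = 0.92). Without cKO column 0 the log2 fold change was -0.27 (with an SE of 0.156 and a limma adjusted p of 0.34). Log2 fold changes are of FPKM + 1, cKO minus wild type, from limma fitted to every gene that averaged 1 FPKM or more, and the text says that a gene rose or fell only where its adjusted p was under 0.05.

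Jun, the founding member and the protein that Jab1 was found to bind (chr4:95049034-95052222), measured 121.6, 17.7 and 21.2 FPKM in cKO columns 0, 1 and 2, against 13.5, 15.3 and 13.4 FPKM in wild type. Every cKO library was above every wild-type library, but column 0 was far above the other cKO libraries. Relative to the wild-type mean, cKO column 0 was 8.63-fold and the mean of cKO columns 1 and 2 1.38-fold. With this spread Jun did not pass (53.5 ± 59.0 FPKM in cKO and 14.1 ± 1.07 in wild type, log2 fold change 1.30, SE 0.721, limma adjusted p = 0.33). Without cKO column 0 the estimate was smaller and its error narrower, and it again did not pass (0.44, SE 0.109, limma adjusted p = 0.094).

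Junb, a JUN protein with weaker transactivation than JUN (chr8:84974484-84978718), had 113, 16.8 and 19.8 FPKM in cKO columns 0, 1 and 2, against 8.50, 10.96 and 8.28 FPKM in wild type. The groups did not overlap, and cKO column 0 again stood alone. Its fold over the wild-type mean was 12.3 in cKO column 0 and 1.98 for the mean of cKO columns 1 and 2. Junb did not pass over all 6 libraries (50.0 ± 55.0 FPKM in cKO and 9.24 ± 1.49 in wild type, log2 fold change 1.77, SE 0.721, limma adjusted p = 0.20), but without cKO column 0 it passed (log2 fold change 0.92, SE 0.147, limma adjusted p = 0.044). Junb overlaps Prdx2, an antioxidant enzyme gene on the opposite strand, and whether reads were counted by strand is not given in the sources used here. Prdx2 measured 59.4, 71.3 and 73.3 FPKM in cKO columns 0, 1 and 2, against 80.1, 65.7 and 76.5 FPKM in wild type, and so was at its lowest in the library in which Junb was highest. Antisense genes also overlap Jun and Jund: Junos, opposite Jun, was at 0 to 0.430 FPKM in cKO and 0.0903 to 0.194 FPKM in wild type, and Gm11175, opposite Jund, at 3.09 to 4.03 FPKM in cKO and 3.18 to 5.43 FPKM in wild type.

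Fos, the prototype of its family (chr12:85473890-85477273), showed the widest range of the 8 genes. It measured 587 FPKM in cKO column 0 but 18.3 and 20.0 FPKM in cKO columns 1 and 2, against 9.73, 8.60 and 14.9 FPKM in wild type. All cKO libraries were above all wild-type libraries, although wild-type column 2 came close to cKO columns 1 and 2. The level was 53.0-fold the wild-type mean in cKO column 0 and 1.73-fold in the mean of cKO columns 1 and 2. Fos did not pass with all libraries (208 ± 328 FPKM in cKO and 11.1 ± 3.36 in wild type, log2 fold change 2.40, SE 1.36, limma adjusted p = 0.33) or without cKO column 0 (0.77, SE 0.235, limma adjusted p = 0.13).

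Fosb, a close relative of Fos (chr7:19302696-19310051), was also by far the highest in cKO column 0. Values were 177, 5.68 and 7.24 FPKM in cKO columns 0, 1 and 2, against 3.16, 2.70 and 6.32 FPKM in wild type. Here the groups overlapped, since wild-type column 2 lay above cKO column 1. Fosb was 43.7-fold the wild-type mean in cKO column 0 and 1.59-fold in the mean of cKO columns 1 and 2, and did not pass (log2 fold change 2.15, SE 1.29, limma adjusted p = 0.36, and 0.62, SE 0.330, limma adjusted p = 0.31 without cKO column 0). Wild-type column 2 was also the highest wild-type library for Fos.

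Fosl1, which encodes FRA1 and lacks the strong transactivation domain of FOS (chr19:5447547-5455946), differed from these 4 genes. It measured 3.18, 2.81 and 2.73 FPKM in cKO columns 0, 1 and 2, against 0.452, 1.21 and 0.288 FPKM in wild type. The cKO libraries lay close together and all were above wild type, and cKO column 0 was 1.10 times the highest other library on FPKM + 1. Fosl1 rose, the 1 member of 7 tested that passed over all 6 libraries, beside 3.48% of all genes tested that rose (2.91 ± 0.238 FPKM in cKO and 0.648 ± 0.489 in wild type, log2 fold change 1.28, SE 0.230, limma adjusted p = 0.038). Its wild-type mean was under 1 FPKM, so it entered the test only through its cKO level. The call was lost without cKO column 0, 1 or 2 (limma adjusted p = 0.077, 0.10 and 0.12) and without wild-type column 0 or 2 (0.12 and 0.11), with log2 fold changes between 1.12 and 1.51 over the 6 fits that left out 1 library. It was also lost without the filter on low values (limma adjusted p = 0.063), and a pseudocount of 0.1 gave a log2 fold change of 2.20 that passed (0.049). Ccdc85b, which overlaps Fosl1 on the opposite strand, measured 4.09, 7.39 and 8.56 FPKM in cKO columns 0, 1 and 2 and 7.86, 8.25 and 9.25 FPKM in wild type.

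Fosl2, which encodes FRA2, a FOS protein expressed in developing cartilage and bone (chr5:32135801-32157842), measured 9.43, 6.98 and 6.99 FPKM in cKO columns 0, 1 and 2, against 5.36, 7.38 and 4.42 FPKM in wild type. The groups overlapped at wild-type column 1. It did not pass (log2 fold change 0.40, SE 0.194, limma adjusted p = 0.27). Batf, a bZIP protein without a transactivation domain that is best known in lymphocytes (chr12:85686669-85709087), was near the limit of measurement at 0.502, 0.979 and 1.39 FPKM in cKO columns 0, 1 and 2, against 0.724, 0.790 and 0.686 FPKM in wild type. Its mean fell below 1 FPKM, so it was not tested, and cKO column 0 was the lowest of the 6 libraries.

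**Figure D1:**
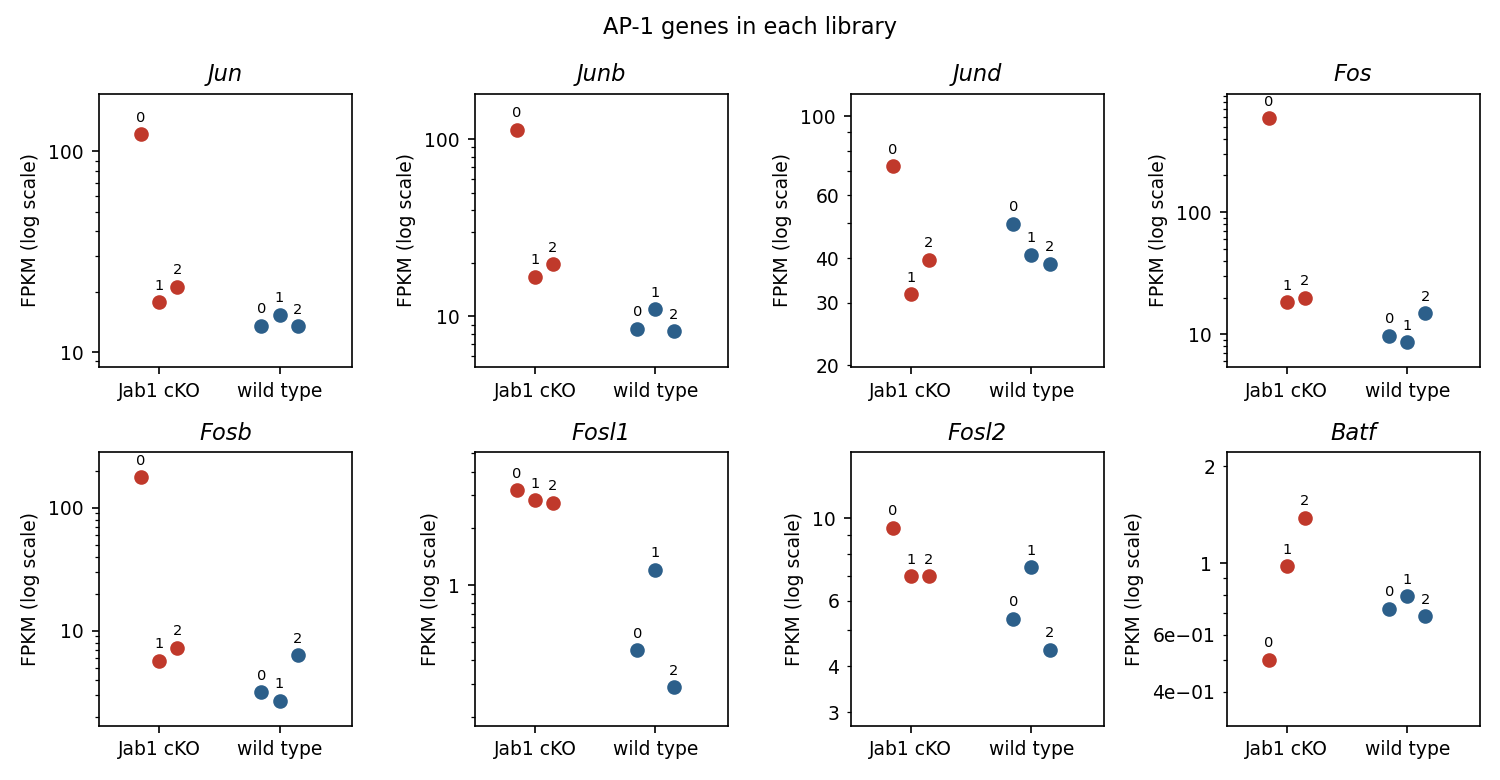
FPKM (log axis, its range set for each gene) of the 8 AP-1 genes in each library, with Jab1 cKO left and wild type right and the column number beside each point. Column 0 lies far above the other cKO libraries for Jun, Junb, Fos and Fosb, at 121.6, 113, 587 and 177 FPKM, while the 3 cKO values of Fosl1 lie between 2.73 and 3.18 FPKM.

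Of the 7 genes tested, among which Fosl1 owes its place to its cKO level, Jun, Junb, Fos and Fosl1 had cKO values that were all above wild type, beside 16.3% of all genes tested, and none had cKO values all below, beside 15.9%. The 7 genes had a median log2 fold change of 1.30 with all libraries and 0.62 without cKO column 0, where the medians over all genes tested were -0.00390 and -0.0127. Without cKO column 0, 1 of the 7 passed, Junb in place of Fosl1, beside 2.7% of all genes tested that rose in that fit. The fit with a covariate for Y-linked expression called Jun and Junb (limma adjusted p = 0.047 and 0.020) and not Fosl1. Its log2 fold changes for Jun and Junb were 6.78 and 7.30, and 26 of all genes tested changed in it. The covariate mostly follows genotype, and in this fit Cops5 itself was not called (limma adjusted p = 0.084). For 1 gene in 3 libraries against 3, the smallest p of an exact permutation test is 0.1, and no such test was made. Libraries were made from bulk cells, so a change in RNA per cell cannot be told apart from a change in the share of the cells that carry it.

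**Figure D2:**
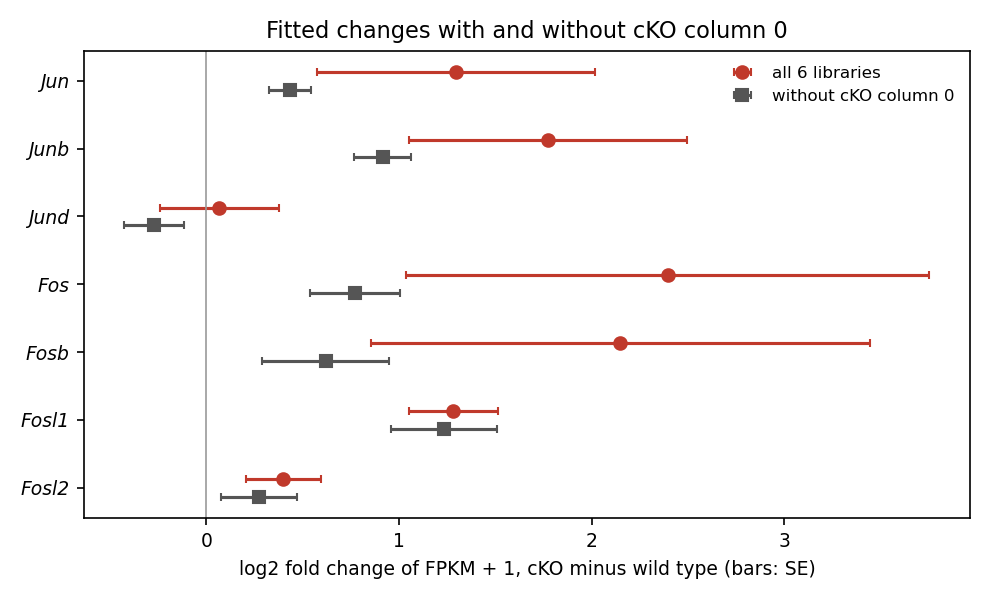
Log2 fold change of FPKM + 1, cKO minus wild type, with its standard error for the 7 tested AP-1 genes, from all 6 libraries (red circles) and without cKO column 0 (grey squares). Fos and Fosb have estimates of 2.40 and 2.15 with all libraries and of 0.77 and 0.62 without cKO column 0, while Fosl1 has 1.28 and 1.23.

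The make-up of the AP-1 mRNA pool differed between the libraries as well as its size. The 8 genes summed to 1085, 101 and 119 FPKM in cKO columns 0, 1 and 2, against 91.3, 87.9 and 86.8 FPKM in wild type. Fos made up 54.1% of this sum in cKO column 0, 18.2% in column 1 and 16.8% in column 2, against 10.7, 9.78 and 17.2% in wild-type columns 0, 1 and 2. Jund held the largest share in every library except cKO column 0, with 6.67, 31.3 and 33.3% in cKO and 54.6, 46.6 and 44.3% in wild type, so all cKO shares were below all wild-type shares. The FPKM of Jund itself overlapped between the groups, while the sum was higher in every cKO library. Junb held 10.5, 16.6 and 16.6% in cKO and 9.31, 12.5 and 9.53% in wild type. The summed FOS family was 2.53, 0.512 and 0.458 times the summed JUN family in cKO columns 0, 1 and 2, against 0.260, 0.296 and 0.430 times in wild type. FOS family mRNA thus exceeded JUN family mRNA in 1 of the 6 libraries, and the other cKO ratios were only a little above the highest wild-type ratio.

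**Figure D3:**
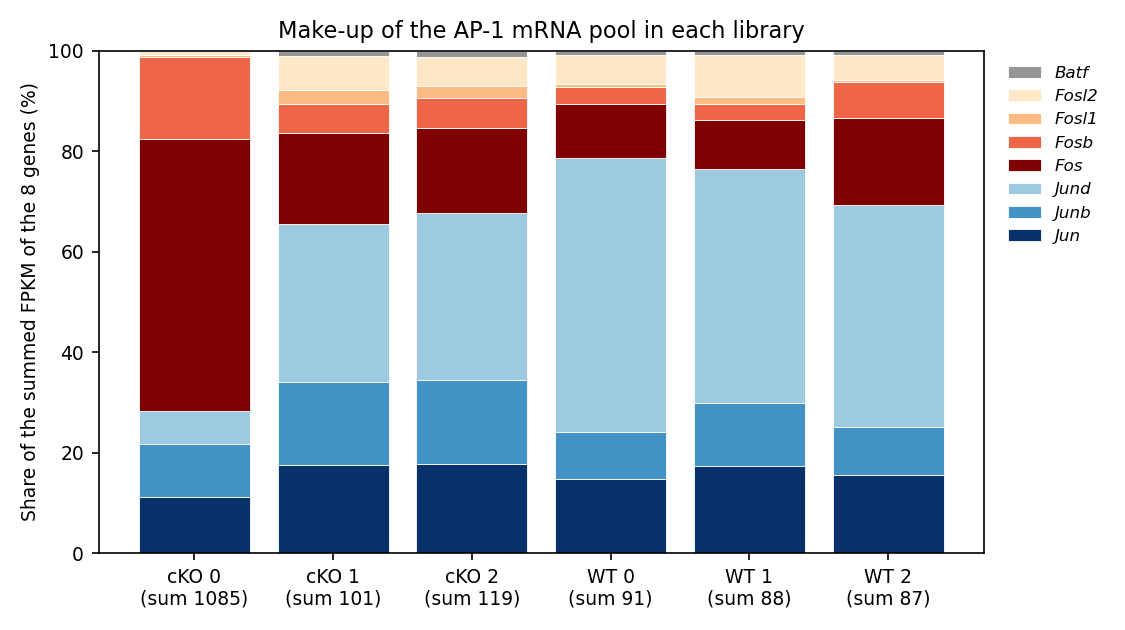
Share (%) of each gene in the summed FPKM of the 8 AP-1 genes, by library, with cKO left of wild type and the sum in FPKM under each bar; blue shades are JUN and red shades FOS genes. Jund makes up 44.3 to 54.6% in wild type and 6.67 to 33.3% in cKO, and Fos 54.1% in cKO column 0.

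In wild-type libraries the order of the mean levels was Jund, Jun, Fos, Junb, Fosl2, Fosb, Batf and Fosl1. Neighbours in this order had separate ranges for Jund above Jun, for Junb above Fosl2 and for Fosb above Batf, and overlapped elsewhere. In cKO libraries the order of the means was Fos, Fosb, Jun, Junb, Jund, Fosl2, Fosl1 and Batf, but ranges overlapped between each pair of neighbours from Fos to Jund. By median over the cKO libraries Jund came first at 39.6 FPKM, followed by Jun at 21.2, Fos at 20.0 and Junb at 19.8 FPKM. Fosl1 and Batf held places 7 and 8 in each of the 3 cKO libraries, while Fosl2 held place 6 in cKO columns 0 and 2 and place 5, above Fosb, in column 1.

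Fos, Fosb, Jun and Junb were among the genes that stood out in cKO column 0. Over its highest value in the other 5 libraries, on FPKM + 1, Fos was 28.0-fold, Fosb 21.6-fold, Jun 5.52-fold and Junb 5.51-fold in that library. By this ratio they ranked 22, 31, 64 and 65 among all 14012 genes tested, where the highest was Mir7231 at 164-fold. Among the 11055 protein-coding genes they ranked 1, 2, 8 and 9, and 38 protein-coding genes were over 2-fold. Jund at 1.44-fold, Fosl2 at 1.24-fold and Fosl1 at 1.10-fold were not. Ranks 3 to 6 of the protein-coding genes were held by genes of the immediate-early list, Nr4a1 at 16.1-fold, Egr1 at 13.1-fold, Ier2 at 8.64-fold and Btg2 at 8.54-fold.

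The immediate-early list, 25 genes induced by stimulation or by tissue dissociation, was in part high in the same library. Of its 23 tested members 13 were over 2 times every other library in cKO column 0, beside 1.04% of all genes tested and 38 of the 11055 protein-coding genes. Of these 13, Egr2, Nr4a3 and Arc averaged 1 FPKM only through cKO column 0, and 19 members were tested without that library. Egr1, a zinc finger factor induced through serum response factor, measured 145, 10.1 and 9.29 FPKM in cKO columns 0, 1 and 2, against 3.16, 5.11 and 6.01 FPKM in wild type. Nr4a1, an orphan nuclear receptor, measured 146, 8.15 and 6.71 FPKM in cKO, against 3.66, 4.37 and 5.25 FPKM in wild type. For both, the remaining cKO libraries were also above every wild-type library, by far less. None of the 23 passed in limma with all libraries, although 8 had an unadjusted p under 0.05, each of them higher in cKO. Over all genes tested 24.7% passed that threshold, counting both directions. The list median was 0.73 over the 23 genes, and 0.43 over the 19 tested without cKO column 0. Without that library 1 gene rose, beside 2.7% of all genes tested, and 1 fell. The gene that rose in that fit was Btg2, an antiproliferative p53 target, at 185, 20.0 and 20.8 FPKM in cKO columns 0, 1 and 2, against 5.91, 8.96 and 8.08 FPKM in wild type (log2 fold change 1.32, limma adjusted p = 0.032). The gene that fell was Klf2, a Krüppel-like factor, at 23.1, 5.30 and 5.28 FPKM in cKO and 8.48, 10.4 and 10.7 FPKM in wild type (-0.78, limma adjusted p = 0.039), beside 2.07% of all genes tested that fell. These genes, like Egr1 and Nr4a1, were picked after their values were seen. The highest members were the matricellular genes Cyr61, at 622, 171 and 173 FPKM in cKO against 181, 227 and 212 FPKM in wild type, and Ctgf, at 316, 236 and 220 FPKM in cKO against 111, 145 and 159 FPKM in wild type. Cyr61 was above wild type in cKO column 0 alone, and Ctgf was higher in every cKO library without passing (limma adjusted p = 0.057). The part of tissue handling in these values was not tested.

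**Figure D4:**
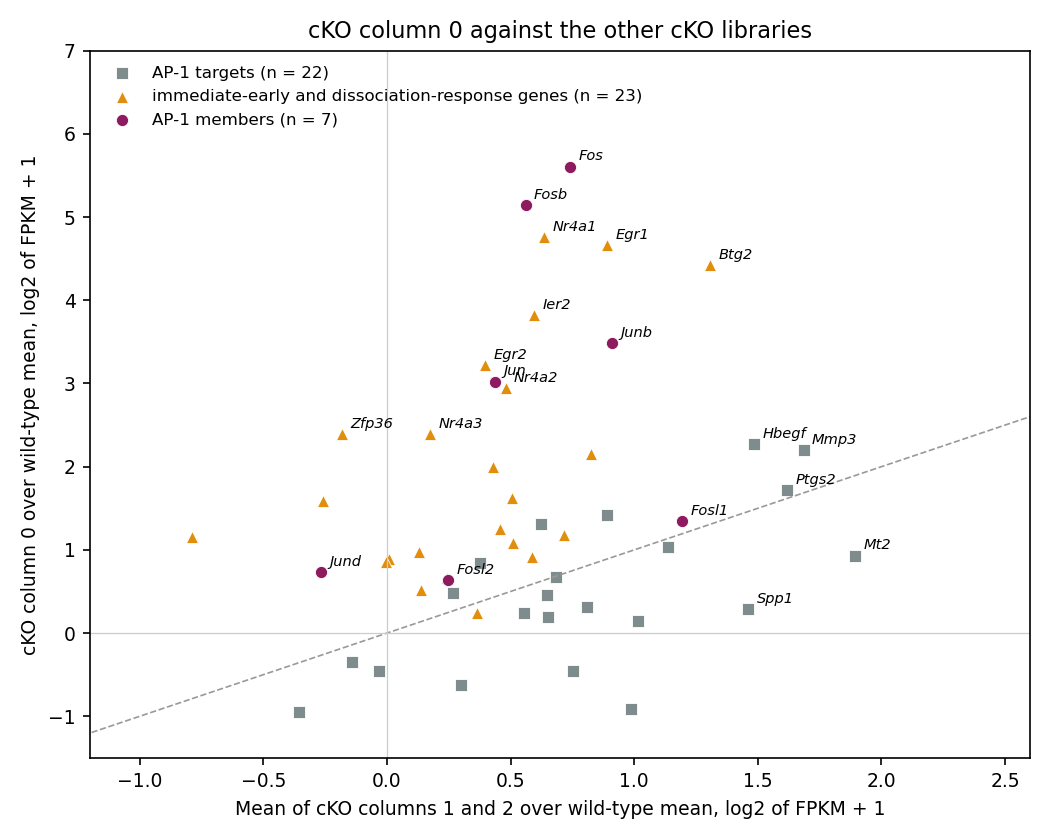
Log2 ratio to the wild-type mean, on FPKM + 1, in cKO column 0 (vertical) and in the mean of cKO columns 1 and 2 (horizontal), for tested AP-1 genes, immediate-early genes and AP-1 targets; points on the dashed line are equal in both. Fos, Fosb, Jun and Junb lie high above the line among the immediate-early genes, while Fosl1 lies near it, with Ptgs2 and Mmp3.

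By the root mean square difference of log2 profiles over the 6 libraries, each centred on its own mean, the gene most like Jun was Nr4a2, another NR4A nuclear receptor, at 0.124, followed by Egr2 at 0.194. The gene most like Fos was Fosb at 0.184, followed by Nr4a1 at 0.361. Nr4a2 measured 24.2, 3.74 and 3.40 FPKM in cKO columns 0, 1 and 2 and 2.16, 2.32 and 2.36 FPKM in wild type. The other places among the nearest 5 were held by small RNA genes listed at 0 in every library except cKO column 0. These were Gm22676, Gm44403 and Mir669h for Jun, at 0.216, 0.216 and 0.226, and Gm26116, Mir7063 and Mir23b for Fos, at 0.413 each. All 6 libraries entered this measure, and in each case cKO column 0 set most of the profile. Egr2 measured 10.2 FPKM in cKO column 0 and 0.154 to 0.734 FPKM elsewhere. It and the small RNA genes averaged 1 FPKM only through cKO column 0, so they entered the ranking only through that library.

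Most other bZIP genes whose proteins can pair with JUN or FOS did not pass. Of 19 tested members 1 rose, none fell and 18 did not pass, with a median log2 fold change of 0.29. That share was close to the 3.48% of all genes tested that rose. Cebpd, a C/EBP factor of inflammatory responses, rose and was 5.78, 4.23 and 4.14 FPKM in cKO columns 0, 1 and 2, against 2.39, 2.70 and 2.48 FPKM in wild type (log2 fold change 0.69, limma adjusted p = 0.044). All cKO values were above wild type. It also passed without cKO column 0 (limma adjusted p = 0.045), but not in the 5 fits that left out any other library or when unfiltered (0.090). Atf3, a stress-induced partner of JUN, was likewise far higher in cKO column 0 but overlapped between the groups otherwise, with 46.7, 9.69 and 8.32 FPKM in cKO columns 0, 1 and 2 and 7.91, 10.1 and 6.42 FPKM in wild type. Atf4, a factor of the integrated stress response and the highest of the list, measured 403, 306 and 350 FPKM in cKO, against 287, 276 and 259 FPKM in wild type, separate groups that did not pass (limma adjusted p = 0.15). Nfe2l1, next in level, overlapped between the groups, at 94.2, 76.3 and 80.8 FPKM in cKO and 79.99, 98.7 and 74.2 FPKM in wild type.

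With all libraries, the kinases that feed AP-1 gave 2 calls, both lower. Of 28 tested MAP kinases, their activators, scaffolds and nuclear substrates, 2 fell, none rose and 26 did not pass, beside 2.59% of all genes tested that fell, and the list median was 0.01. Map2k6, which activates p38 kinases, fell to 3.07, 2.31 and 2.89 FPKM in cKO columns 0, 1 and 2, against 7.18, 5.54 and 6.21 FPKM in wild type (log2 fold change -0.96, limma adjusted p = 0.019). Rps6ka1, a ribosomal S6 kinase downstream of ERK, fell to 4.2, 4.93 and 5.08 FPKM in cKO, against 9.40, 10.3 and 7.88 FPKM in wild type (-0.82, limma adjusted p = 0.022). Both genes had clearly separate groups in which cKO column 0 lay with the other cKO libraries, and both passed without it. In that fit 1 member rose, Elk3, an ETS partner of serum response factor, at 21.7, 27.3 and 26.9 FPKM in cKO against 17.1, 19.7 and 17.4 FPKM in wild type (log2 fold change 0.57, limma adjusted p = 0.039, and 0.072 with all libraries). The list had 0 falling genes without cKO column 1 or 2 or wild-type column 0 or 1, and 1 without wild-type column 2. Transcripts of the JUN kinases Mapk8 and Mapk9 overlapped between the groups, at 16.2, 20.1 and 17.5 FPKM in cKO against 15.7, 20.9 and 18.1 FPKM in wild type for Mapk8. Map2k2, an activator of ERK, measured 39.1 to 50.1 FPKM in cKO against 38.0 to 43.5 FPKM in wild type, without passing (limma adjusted p = 0.51).

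Of 8 tested dual-specificity phosphatases, which switch MAP kinases off, 1 rose and 7 did not pass, beside 3.48% of all genes tested that rose. Dusp6, specific for ERK and induced by it, rose to 11.9, 9.55 and 7.93 FPKM in cKO columns 0, 1 and 2, against 2.17, 2.52 and 3.71 FPKM in wild type (log2 fold change 1.51, limma adjusted p = 0.019). It was high in every cKO library and passed without cKO column 0, but the count of rising phosphatases was 0 without cKO column 1 or wild-type column 0 or 1. Dusp1, an immediate-early phosphatase of JNK and p38 and the highest of the list, measured 175, 30.0 and 34.5 FPKM in cKO, against 13.7, 18.8 and 16.1 FPKM in wild type. It resembled Junb, with separate groups, a far higher cKO column 0 (11th among protein-coding genes by its ratio to the highest other library) and a call only without that library (limma adjusted p = 0.18 with it and 0.041 without). Dusp14 measured 27.6, 20.7 and 19.3 FPKM in cKO, against 23.0, 21.1 and 16.1 FPKM in wild type.

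Among 17 tested genes for the turnover and coactivation of JUN and FOS proteins, 2 rose and 1 fell, Cops5 itself, beside 3.48% of all genes tested that rose and 2.59% that fell. Fbxw7, the substrate receptor that marks phosphorylated JUN for degradation, rose and was 17.6, 16.2 and 20.2 FPKM in cKO columns 0, 1 and 2, against 11.1, 12.5 and 10.9 FPKM in wild type (log2 fold change 0.60, limma adjusted p = 0.033). Apex1, a redox factor that keeps AP-1 in its DNA-binding state, rose and was 67.4, 71.2 and 71.5 FPKM in cKO, against 55.5, 44.6 and 49.4 FPKM in wild type (0.49, limma adjusted p = 0.043). For both genes cKO column 0 lay close to the other cKO libraries, and the number rising was 0 when any 1 of the 6 libraries was left out or when unfiltered. Apex1 also missed the threshold with median-of-ratios scaling and quantile normalization (limma adjusted p = 0.051 and 0.056). The ligase genes Itch and Rfwd2 (COP1) overlapped between the groups, at 32.4 to 35.7 FPKM in cKO against 33.6 to 35.3 FPKM in wild type and at 3.5 to 4.16 FPKM in cKO against 3.69 to 4.22 FPKM in wild type.

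Of 22 tested genes known as AP-1 targets, 4 rose, none fell and 18 did not pass, beside 3.48% of all genes tested that rose and 2.59% that fell, with a median log2 fold change of 0.63, and 0.76 without cKO column 0. In cKO column 0, 0 of the 22 were over 2 times every other library, beside 1.04% of all genes tested and 38 of the 11055 protein-coding genes. Ptgs2, which encodes cyclooxygenase-2, rose and was 18.52, 17.9 and 16.6 FPKM in cKO columns 0, 1 and 2, against 3.57, 5.56 and 5.70 FPKM in wild type (log2 fold change 1.67, limma adjusted p = 0.0084). Plaur, the urokinase receptor, rose and was 10.6, 11.4 and 11.5 FPKM in cKO, against 3.73, 5.40 and 4.86 FPKM in wild type (1.11, limma adjusted p = 0.013). The cKO libraries were level for these 2 genes, and cKO column 0 was even the lowest of them for Plaur. Mmp3, stromelysin, rose and was 6.41, 5.31 and 3.09 FPKM in cKO, against 0.704, 0.691 and 0.452 FPKM in wild type (1.84, limma adjusted p = 0.019). Its wild-type mean was under 1 FPKM, as for Fosl1. Hbegf, a ligand of the EGF receptor, rose and was 14.2, 8.54 and 7.04 FPKM in cKO, against 1.4, 3.10 and 1.92 FPKM in wild type (1.78, limma adjusted p = 0.033). Hbegf was highest in cKO column 0, by 1.59 times its highest other library on FPKM + 1, and missed the threshold when unfiltered (limma adjusted p = 0.059). All 4 also passed without cKO column 0, whereas 2 of the list passed without cKO column 1 or 2 or wild-type column 0 or 1, and 1 without wild-type column 2. With the covariate for Y-linked expression 0 targets rose.

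**Figure D5:**
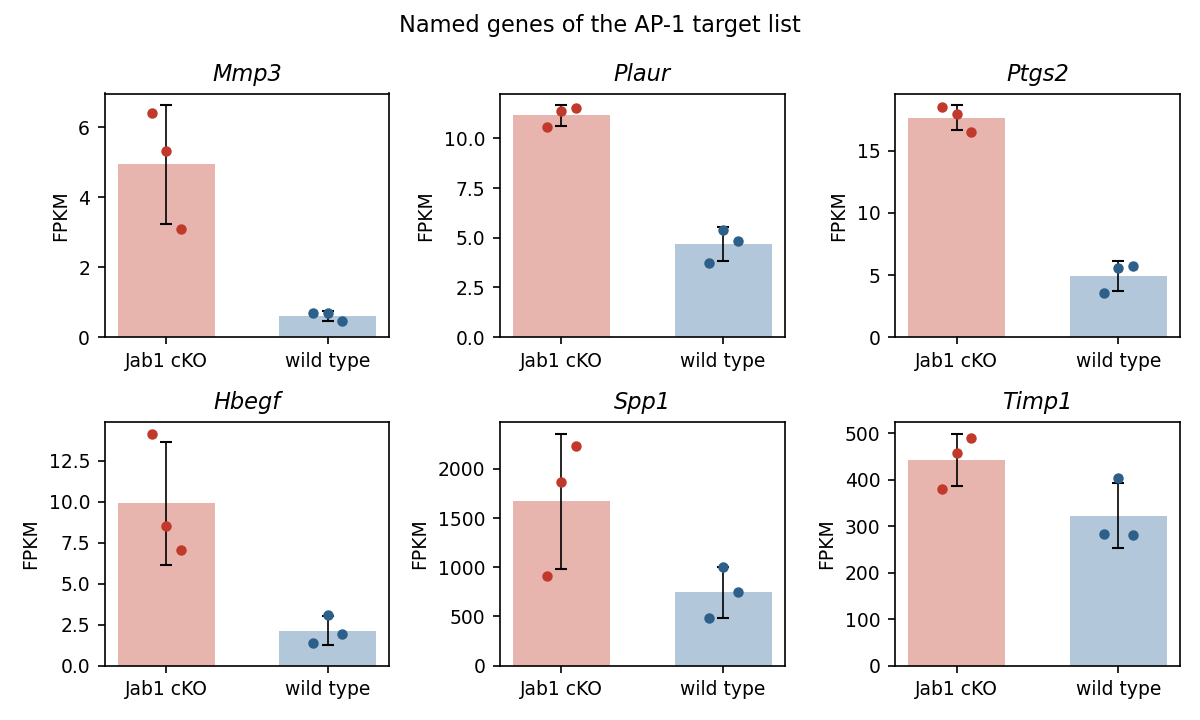
FPKM of the named AP-1 targets, with the bar at the mean, the error bar 1 SD (n = 3), points for libraries 0, 1 and 2 from left to right, and Jab1 cKO left of wild type. For Plaur and Ptgs2 the 3 cKO libraries lie together at 10.6 to 11.5 and 16.6 to 18.52 FPKM, and for Spp1 cKO column 0 is the lowest cKO library.

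Other targets showed a reverse order within the cKO libraries. Spp1, osteopontin, measured 909 FPKM in cKO column 0 but 1872 and 2238 FPKM in cKO columns 1 and 2, against 486, 1001 and 751 FPKM in wild type (limma adjusted p = 0.18). Mmp13, the collagenase of hypertrophic cartilage, measured 49.3, 88.3 and 142 FPKM in cKO columns 0, 1 and 2, against 38.6, 101 and 64.8 FPKM in wild type. Both were thus lowest in the cKO library with the highest Fos. Timp1, a metalloproteinase inhibitor, measured 381, 457 and 491 FPKM in cKO, against 283, 403 and 280 FPKM in wild type, without passing (limma adjusted p = 0.18). Spp1 is made by hypertrophic chondrocytes, osteoblasts and osteoclasts as well as being an AP-1 target. The summed osteoblast and hypertrophic markers, Spp1 among them, were 1167, 2619 and 3079 FPKM in cKO and 938 to 1608 FPKM in wild type. Spp1 itself made up most of each sum, so the sums are not separate from it. The rest of the sum, without Spp1, was also lowest in cKO column 0 of all libraries.

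Cartilage markers were strong in all libraries. The 11 of 14 chondrocyte markers found in the table summed to 13417, 9111 and 8585 FPKM in cKO columns 0, 1 and 2. In wild type they summed to 12381 to 14394 FPKM, so by this sum cKO column 0 lay with the wild-type libraries. Of these 11 markers, 5 had every cKO library, column 0 included, below every wild-type library, beside 15.9% of all genes tested. None had every cKO library above. Sums for 7 of 8 erythroid markers were 14.9, 49.4 and 22.6 FPKM in cKO and 196 to 221 FPKM in wild type, and 5 of 5 tested fell, beside 2.59% of all genes tested. Of the other marker lists, 2 of 11 tested chondrocyte markers fell (median log2 fold change -0.47), as did 2 of 9 fibroblast, 1 of 6 leukocyte and 1 of 5 muscle markers, and none rose. The 14 leukocyte markers summed to 10.7, 19.3 and 40.8 FPKM in cKO and 36.5 to 77.8 FPKM in wild type, with 7 under 1 FPKM in every library. Cd3e, Cd8a and Ly6g, markers of T cells and granulocytes, were each listed at 0 throughout at least 1 group. The 8 osteoclast markers summed to 83.3, 114 and 272 FPKM in cKO and 61.0 to 93.6 FPKM in wild type, the 7 endothelial markers to 2.16, 10.9 and 11.8 FPKM in cKO and 3.07 to 5.59 FPKM in wild type, and the 8 muscle markers to 51.0, 74.5 and 53.2 FPKM in cKO and 142 to 171 FPKM in wild type. The 10 fibroblast and perichondrium markers summed to 1014, 1579 and 1093 FPKM in cKO and 1484 to 1759 FPKM in wild type. In cKO column 0, where Fos, Fosb, Jun and Junb were highest, the erythroid, leukocyte, endothelial, muscle and fibroblast sums were the lowest of all 6 libraries. The part of cell make-up in the AP-1 values was not tested.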

How the data were processed

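The deposited table holds FPKM values per gene and library, made by the authors; the tools STAR, Cufflinks and Cuffdiff and the build mm10 come from the submitters' processing notes, and a stranded kit with ribosomal RNA removal and CLC Genomics Workbench from the labels' protocols. Versions, settings, any scaling between libraries, and the read depth behind each value are not given in the sources used here, so no counting intervals are given. Since the labels number libraries 0, 1 and 3 but the headers 0, 1 and 2, a sample could be assigned to 4 columns and a group alone to the other 2. Wild-type column 0 has a title with day 30, and every other title has day 24.

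Coordinates are from GENCODE release M21 (27578 of 27734 IDs matched). Values were tested as log2(FPKM + 1) in the 14012 genes averaging 1 FPKM or more, with limma 3.58.1 in R 4.3.3 (eBayes, trend=TRUE), two-sided, with Benjamini-Hochberg adjustment over all genes tested. The procedure was tested on simulated data. The members and lists were chosen with earlier results of these data known. Named genes were the members, Cops5, the passing and the 2 highest genes of each list, and the nearest profiles to Jun and Fos; others were named after their values were seen. Of the genes this rule names, 2 are not reported here.

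Same-numbered columns did not deviate together (correlations -0.0328, -0.0421 and -0.0226), so numbers were not taken as pairs.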

Additional observations from a re-analysis of the deposited data

How the results depend on the processing

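Over all genes 850 changed, against 461 unfiltered, 1488 with library weights, 60 with the replicate block, 26 with a covariate for Y-linked expression, and 174 to 666 when 1 library was left out. The AP-1 genes that changed numbered 1, against 0 with a minimum mean of 5 FPKM (which removes Fosl1), when unfiltered or with the replicate block, 2 with the Y-linked covariate, and 0 to 1 when 1 library was left out. Jund turned to -0.11 with library weights, and ranged from -0.27 (without cKO column 0) to 0.32 when 1 library was left out, with -0.00647 without wild-type column 2. Cyr61 turned to -0.058 with library weights and ranged from -0.25 (without cKO column 0) to 0.67 over those fits. Nfe2l1, at -0.00398 over all libraries, became 2.98e-04 with median-of-ratios scaling and 0.72 with the Y-linked covariate, and ranged from -0.091 to 0.11 without 1 library. Spp1 turned to -1.15 with the Y-linked covariate. That covariate, on a log2 scale, was 3.96, 6.39 and 6.18 in cKO columns 0, 1 and 2 against 0.280, 0.0400 and 0.713 in wild type, so it mostly follows genotype, and it gave a log2 fold change of 12.2 for Fos. Pseudocounts of 0.1 and 0.5, quantile normalization and a robust variance prior left the call on each of the 7 tested AP-1 genes as it was. The numbers on the libraries did not pair them, and with the replicate block Cops5 was called (limma adjusted p = 0.040) while Fosl1 (0.14), Cebpd, Map2k6, Rps6ka1, Dusp6, Fbxw7, Apex1 and the 4 rising AP-1 targets were not (0.071 to 0.17). A pseudocount of 0.1 gave Mmp3 a log2 fold change of 2.77. Read depth is unknown, which limits what can be said of Batf and Fosl1. Causes were not tested.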
